A study of Danio rerio with 2 samples.

Results

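Genes of cell division and DNA replication were followed on 2 Affymetrix zebrafish expression arrays, each hybridised with RNA of 1 preparation of fin pigment cells. The members were all probe sets whose single gene symbol in the platform annotation fits a fixed pattern of names: cyclins A, B, D and E, the cdk and cdkn names, the MCM, ORC, RFC and GINS complexes, the replicative polymerases, pcna, cdc6, cdt1, cdc7, cdc45, top2, the rrm genes, and the aurk, bub, plk, cdc20 and mki67 names of mitosis. The pattern found 101 probe sets of 76 genes, among 10795 probe sets of 8793 genes with a single symbol and 15502 transcript probe sets in all. A further 2 probe sets whose annotation fits the pattern but names several genes were left out.

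The fish were wild-type adults over 2 months old from a pet shop, and tail and anal fins of 1000 of them were pooled. The fins were digested with trypsin and collagenase before melanophores (black, melanin-holding cells) and xanthophores (yellow, pteridine- and carotenoid-holding cells) were separated by centrifugation or a cell sorter, and which of these gave which sample is not stated. The labels contradict each other: the melanophore title stands with xanthophores in the source name and cell type, and the xanthophore title with melanophores. The arrays are therefore called melanophore-titled and xanthophore-titled, and every ratio is the first over the second. Both groups are wild type and untreated, and each is 1 pooled preparation on 1 array, so that no difference has a replicate check and no test between the preparations was possible.

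A cell that divides passes from growth into DNA synthesis and then mitosis under cyclins bound to cyclin-dependent kinases. D cyclins act first by relieving the hold of the Rb protein on E2F transcription factors, whose targets include cyclin E, the MCM helicase and other replication genes, and cyclins A and B act later with Cdk1. Before synthesis the origin recognition complex, Cdc6 and Cdt1 load the MCM helicase on DNA, Cdc7, Cdc45 and the GINS complex switch it on, and PCNA, a ring set by the RFC complex, holds the polymerases at the fork. Inhibitors such as p27 and p57, made by cdkn1b and cdkn1c genes, stop the kinases in resting and differentiated cells.

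The deposited values are MAS 5.0 signals on a linear scale. A signal was called above or under an array's median over transcript probe sets, which was 47.2 for the melanophore-titled array and 43.5 for the other. A probe set counts as measured if its brighter signal is at or over the median of its own array. A dimmer signal was raised to the median of its array before the ratio, which makes the ratio a lower bound. The only error that could be had was the disagreement of the log2 ratio between probe sets of the same gene, with an SD of 0.42 (466 genes), a factor of 1.33. It was 0.34 over probe sets at or above the 75th percentile of both arrays (150 genes) and 0.47 over dimmer ones (139 genes). It is technical and leaves out biological spread. The melanophore-titled array was brighter at the median and at the 75th percentile (234, against 173 on the xanthophore-titled array), less so at the median. All 18 spike-in control probe sets were higher on it, with log2 ratios of 0.18 to 0.97 (median 0.38). Over the 6228 measured probe sets with a single symbol the median log2 ratio was 0.34. A ratio near this shift cannot be told from the difference in brightness of the arrays, and ratios with the spike-ins set equal are given where they alter a statement.

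The label of each array was set against marker genes. Of 12 melanophore markers 4 had a probe set. The melanin enzyme gene dct stood at 50.1 in the melanophore-titled cells, against 590.1 in the xanthophore-titled cells, while tyrosinase, tyr, stood at 48.4 (melanophore-titled) and 39.2 (xanthophore-titled) and pmelb at 1.9 (melanophore-titled) and 3.2 (xanthophore-titled). The 7 of 10 xanthophore markers with a probe set summed to 11014 in the melanophore-titled cells, against 4915 in the xanthophore-titled cells, with bco1 at 3076.2 (melanophore-titled) and 95.2 (xanthophore-titled) and scarb1 at 2206.6 (melanophore-titled) and 98.2 (xanthophore-titled). The glucose transporter family gene slc2a15b, at 3444.2 (melanophore-titled) and 4348.7 (xanthophore-titled), was the 1 xanthophore marker higher on the xanthophore-titled array. The dct, bco1 and scarb1 signals go against the titles and with the source name and cell type. Of the 7 measured xanthophore markers 5 were 2-fold or more higher on the melanophore-titled array, 1 of them as a lower bound. Of the other melanophore markers, kita stood at 90.4 (melanophore-titled) and 97.8 (xanthophore-titled). Both kita and tyr were less than 2-fold apart, and pmelb lay under both medians, so the melanophore side rests on dct alone. Other cell types were also unequal. The 11 connective tissue and bone markers summed to 5297 in the melanophore-titled cells, against 21606 in the xanthophore-titled cells, with all 9 measured ones 2-fold or more higher on the xanthophore-titled array. The 7 endothelial markers summed to 4033 in the melanophore-titled cells, against 931 in the xanthophore-titled cells, with 5 of 6 measured ones 2-fold or more higher on the melanophore-titled array. Summed in the same order of arrays, melanophore-titled and then xanthophore-titled, keratinocyte markers came to 25339 and 21477 (12 genes), leukocyte markers to 1182 and 903 (11 genes), erythrocyte markers to 132.3 and 1212 (5 genes), Schwann cell and neuron markers to 3759 and 2690 (6 genes) and muscle markers to 246.4 and 239.2 (7 genes). Of these, 11 keratinocyte, 6 leukocyte, 2 erythrocyte, 4 Schwann cell and neuron and 1 muscle marker were measured, and the others lay under both medians. Among the measured ones, 3 keratinocyte, 2 leukocyte and 1 Schwann cell and neuron marker were 2-fold or more higher on the melanophore-titled array. On the xanthophore-titled array 1 leukocyte and 2 erythrocyte markers were so. In such pooled RNA, fewer cells of a type and less RNA per cell cannot be told apart, and the part of these cell types in the results below was not tested.

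Most members were dim on both arrays. Of the 101 probe sets, 40 (39.6%) reached the median of the melanophore-titled array and 35 (34.7%) that of the xanthophore-titled array, where 53.3% and 53.6% of all probe sets with a single symbol did so. Under both medians lay 58 (57.4%), against 42.3% of all, and 32 members reached both medians (49.2% of all did). The 58 had signals of 0.9 to 43.6 in the melanophore-titled cells, against 1.7 to 40.6 in the xanthophore-titled cells. By gene, 39 of 76 had at least 1 measured probe set and 37 had none above either median. With 1 probe set a gene, the brightest, 48.7% of member genes and 37.4% of all genes lay under both medians. The place of single members near the line is uncertain, since 11 lay within 10% of a median. The order of the shares depended on where the line was set: at the 65th percentile 78.2% of members and 58.8% of all lay under it on both arrays, but at the 25th percentile the shares were 13.9% and 16%.

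**Figure D1:**
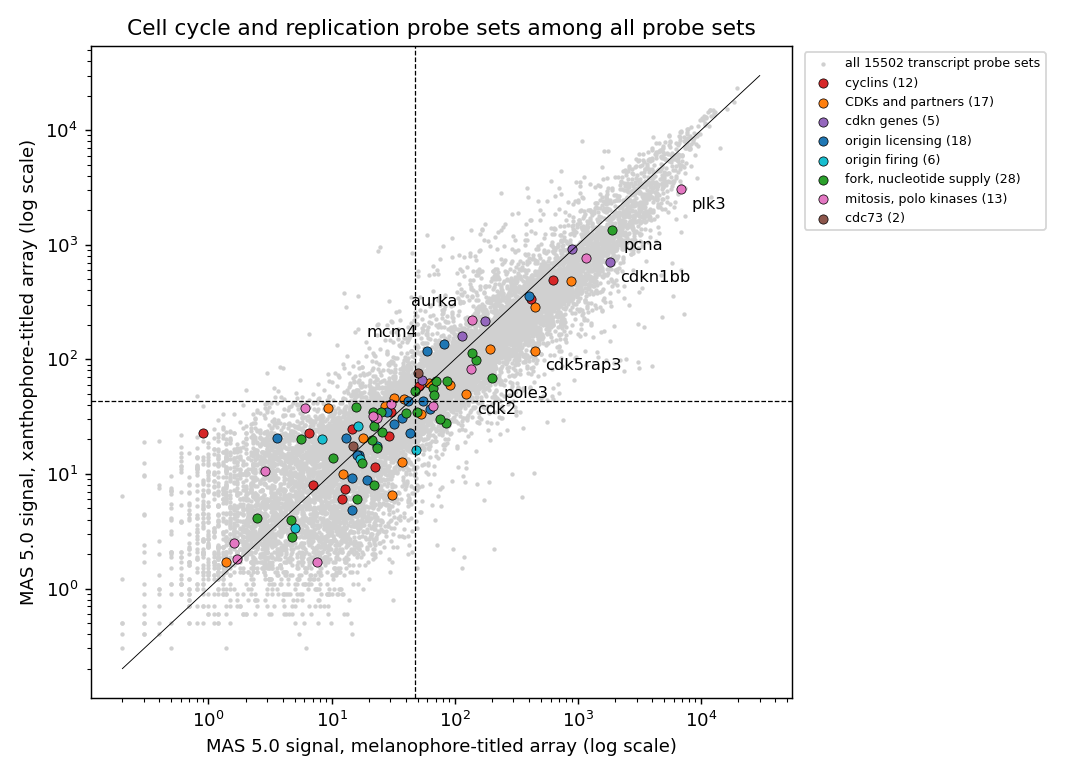
MAS 5.0 signal of each probe set on the melanophore-titled array (x axis) and the xanthophore-titled array (y axis), both on log scales, with the 101 members coloured by role over all 15502 transcript probe sets in grey. Dashed lines are the array medians (47.2 and 43.5) and the solid line is equality. The members crowd at the lower left, where 58 lie under both medians, and plk3 and pcna stand at the upper right.

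By role, all 5 probe sets of the cdkn genes reached the medians on both arrays. Of the cyclins 3 of 12 did on each array. Of the licensing genes 5 of 18 did in the melanophore-titled cells, against 4 of 18 in the xanthophore-titled cells, and of the firing genes 1 of 6 and 0 of 6. In the same order of arrays, the counts for fork and nucleotide supply were 12 and 9 of 28, for mitosis and polo kinases 5 and 4 of 13, and for the cyclin-dependent kinases with their partners 8 and 9 of 17.

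**Figure D2:**
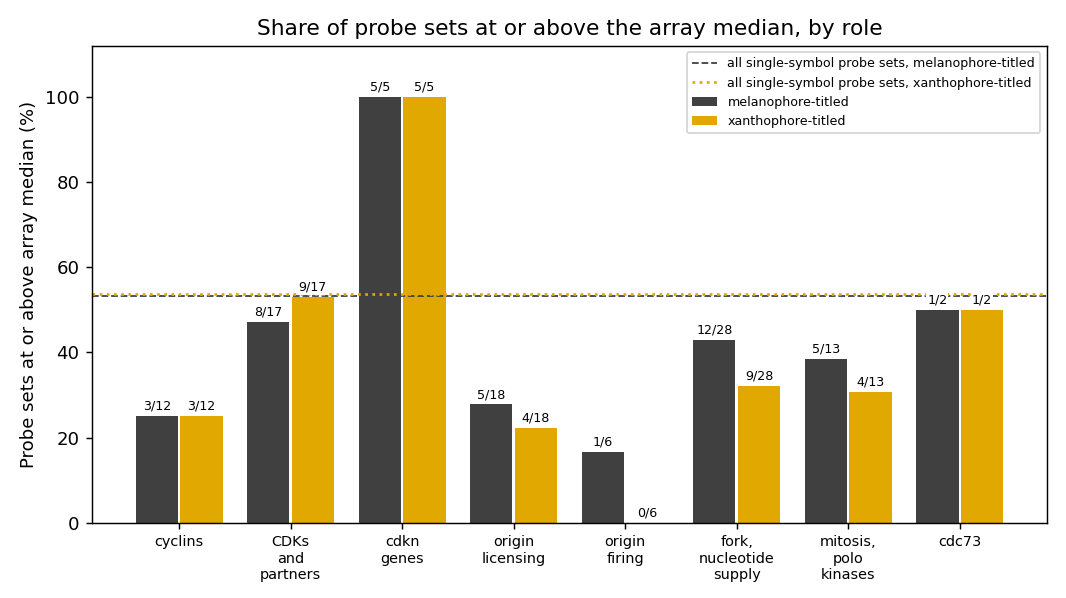
Percent of each role's probe sets at or above the array median, on the melanophore-titled (dark bars) and the xanthophore-titled array (yellow bars), with counts above the bars. Horizontal lines give the share over all single-symbol probe sets (53.3% and 53.6%). The cdkn bars stand at 100%, and the bars of every other role lie under the lines.

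Of the cyclins, ccnd1 and ccne1 alone reached a median. Probe sets of the same gene can differ widely in signal, as those of bub3 do below. Signals of different genes are therefore no measure of their relative RNA. Cyclin D1, ccnd1, the cyclin that carries growth signals into the cycle, was above the median in both of its probe sets, at 622.7 and 415.0 in the melanophore-titled cells, against 492.2 and 337.4 in the xanthophore-titled cells. Its log2 ratios of 0.34 and 0.30 lie at the shift of all probe sets (0.34). With the spike-ins set equal they were -0.043 and -0.083. Cyclin E, ccne1, which acts at the entry into DNA synthesis, lay just above the medians at 51.7 (melanophore-titled) and 58.6 (xanthophore-titled). None of the 9 probe sets of the A and B cyclins, which act in synthesis and mitosis, reached a median on either array. The A cyclin of body cells, ccna2, stood at 30.5 (melanophore-titled) and 34.8 (xanthophore-titled), while ccnb1 stood at 29.4 (melanophore-titled) and 21.4 (xanthophore-titled) and ccnb2 at 14.6 (melanophore-titled) and 24.8 (xanthophore-titled). The 4 probe sets of ccnb3 lay at 0.9 to 22.4 in the melanophore-titled cells, against 8.0 to 23.0 in the xanthophore-titled cells.

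Among the kinases, cdk1, the partner of the mitotic cyclins, was dim at 12.3 in the melanophore-titled cells, against 10 in the xanthophore-titled cells. Cdk2, the partner of cyclins E and A, stood at 123.0 in the melanophore-titled cells, against 49.4 in the xanthophore-titled cells, 2.49-fold higher on the melanophore-titled array and 1.91-fold with the spike-ins set equal. Several kinases above the medians have a main role in transcription. The elongation kinase cdk9 stood at 446.4 (melanophore-titled) and 285.9 (xanthophore-titled), a ratio of 1.56-fold, or 1.20-fold with the spike-ins set equal. The kinase cdk11b, known for roles in transcription and splicing, stood at 194.9 (melanophore-titled) and 123.1 (xanthophore-titled) in its brighter probe set. The Mediator kinase cdk8 stood at 91.3 (melanophore-titled) and 59.3 (xanthophore-titled) in one probe set and at 62.1 (melanophore-titled) and 62.2 (xanthophore-titled) in the other. Of the 3 probe sets of cdk13 2 lay just above the xanthophore-titled median and give no fold, with 38.6 and 32.0 in the melanophore-titled cells, against 45.3 and 45.9 in the xanthophore-titled cells. The kinase cdk7, which activates other cyclin-dependent kinases and is part of the transcription machinery, was under both medians at 37.0 (melanophore-titled) and 12.8 (xanthophore-titled).

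The largest ratio among the 43 measured members belonged to cdk5rap3, at 446.0 in the melanophore-titled cells, against 119.3 in the xanthophore-titled cells, 3.74-fold. It is named for a partner of Cdk5 and is known in mammals as a part of the enzyme complex that attaches the small protein UFM1 to its targets. It remained 2.87-fold with the spike-ins set equal and stood at the 83.0th and 69.6th percentiles of the arrays. The Cdk2-associated gene cdk2ap2 was bright on both, at 881.9 (melanophore-titled) and 478.8 (xanthophore-titled) (1.84-fold, or 1.41-fold with the spike-ins set equal). Of the genes tied to Cdk5, the kinase of neurons, cdk5 stood at 53.1 (melanophore-titled) and 33.7 (xanthophore-titled), and the neuronal activator cdk5r2a at 18 (melanophore-titled) and 20.6 (xanthophore-titled). The centrosome gene cdk5rap2 was under both medians, at 1.4 (melanophore-titled) and 1.7 (xanthophore-titled). The symbol cdc73 fits the pattern by its letters alone: it names a subunit of the PAF transcription complex, and its brighter probe set stood at 50.5 (melanophore-titled) and 75.8 (xanthophore-titled).

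The cdkn genes were the role with every probe set above both medians. The p27 gene cdkn1bb has 2 probe sets, which disagree. One stood at 1811.0 in the melanophore-titled cells, against 709.6 in the xanthophore-titled cells, 2.55-fold, or 1.96-fold with the spike-ins set equal. The other stood at 895.7 (melanophore-titled) and 914.6 (xanthophore-titled), a log2 ratio of -0.030. Their gap of 1.38 on the log2 scale is 2.35 times the SD of a difference between 2 probe sets of a gene, so cdkn1bb has no settled ratio here, though both probe sets stood between the 89.9th and 95.0th percentiles of the arrays. The p57 gene cdkn1ca stood at 113.7 (melanophore-titled) and 160.6 (xanthophore-titled), a log2 ratio of -0.50. The phosphatase gene cdkn3, whose human product acts on Cdk2, stood at 54.5 (melanophore-titled) and 66.2 (xanthophore-titled). The gene cdkn2aipnl, at 176.8 (melanophore-titled) and 217.3 (xanthophore-titled), is related by name to a partner of CDKN2A and is not a kinase inhibitor. Their ratios of -0.50 to -0.28 lie under the median of all probe sets by more than 0.6. With ribosomal protein genes set equal they came to 0 or above, the highest at 0.22. The median of all probe sets rose to 0.86 under that scaling, so they still lay under it.

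All 6 subunits of the origin recognition complex, orc1 to orc6, were under both medians, with signals of 13.0 to 43.6 in the melanophore-titled cells, against 8.9 to 30.5 in the xanthophore-titled cells. The loading factor cdt1 was also under both, at 28.4 (melanophore-titled) and 34.6 (xanthophore-titled), and cdc6 lay at the line, at 54.9 (melanophore-titled) and 43.3 (xanthophore-titled). Of the 6 subunit genes of the MCM helicase, mcm2, mcm3, mcm4 and mcm7 gave ratios, that of mcm3 a lower bound, and these differed. The subunit gene mcm7 was bright on both arrays, at 401.5 (melanophore-titled) and 356.0 (xanthophore-titled). A pair of further subunit genes were brighter on the xanthophore-titled array, mcm2 at 82.1 in the melanophore-titled cells, against 135.4 in the xanthophore-titled cells, and mcm4 at 60.0 (melanophore-titled) and 117.3 (xanthophore-titled). Their log2 ratios were -0.72 and -0.97, so that mcm4 was 1.96-fold and mcm2 1.65-fold higher on the xanthophore-titled array. With the spike-ins set equal these became 2.55-fold and 2.15-fold. The others were near or under the medians: mcm3 at 62.5 (melanophore-titled) and 37.0 (xanthophore-titled) in its brighter probe set, mcm5 at 42.1 (melanophore-titled) and 43.7 (xanthophore-titled), and mcm6 at 14.7 (melanophore-titled) and 4.8 (xanthophore-titled). The paralog mcm6l and the related mcm9 were under both medians.

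Of the genes that fire origins, gins4 alone touched a median, at 48.4 on the melanophore-titled array against 16.3 on the xanthophore-titled array. The kinase cdc7 stood at 8.3 (melanophore-titled) and 20.2 (xanthophore-titled) and the helicase cofactor cdc45 at 23.5 (melanophore-titled) and 17.5 (xanthophore-titled). The genes gins1, gins2 and gins3 lay at 5.0 to 17 in the melanophore-titled cells, against 3.4 to 26.2 in the xanthophore-titled cells.

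At the fork, pcna, the clamp itself, was well above both medians, at 1903.4 in the melanophore-titled cells, against 1343.6 in the xanthophore-titled cells. It stood at the 95.2nd and 95.1st percentiles, and its log2 ratio of 0.50, or 0.12 with the spike-ins set equal, lay within 1 SD of the shift of all probe sets. Besides its place at the fork, PCNA acts in DNA repair. The clamp loader genes rfc1, rfc3 and rfc4 reached both medians, with 70.2, 68.2 and 86.8 in the melanophore-titled cells, against 64.6, 48.8 and 64.7 in the xanthophore-titled cells in their brighter probe sets. The clamp loader gene rfc5 stood at 84.9 (melanophore-titled) and 27.6 (xanthophore-titled), at least 1.95-fold higher on the melanophore-titled array. Of 9 probe sets of the polymerases alpha, delta and epsilon 3 were measured. The catalytic subunit pold1 stood at 147.6 (melanophore-titled) and 98.1 (xanthophore-titled) in its brighter probe set. Its other probe set was under both medians, at 21.2 (melanophore-titled) and 19.9 (xanthophore-titled). The accessory subunit pold3 stood at 66.3 (melanophore-titled) and 56.0 (xanthophore-titled). The primase partners pola1 and pola2 were under both medians (21.6 and 22.2 in the melanophore-titled cells, against 34.7 and 26.2 in the xanthophore-titled cells). The third measured probe set, that of pole3, stood at 201.6 in the melanophore-titled cells, against 68.9 in the xanthophore-titled cells, 2.93-fold, and 2.25-fold with the spike-ins set equal. The gene pole3 codes for a histone-fold subunit of polymerase epsilon that mammals also use in a chromatin remodelling complex. The partner subunits pole2 and pole4 were under both medians.

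Ribonucleotide reductase, which makes the deoxynucleotides, lay near the line. The large subunit rrm1 stood at 47.4 (melanophore-titled) and 52.5 (xanthophore-titled) and the small subunit rrm2l at 49.2 (melanophore-titled) and 34.5 (xanthophore-titled). The small subunit rrm2b, whose human form is induced by p53 outside S phase, stood at 76.2 in the melanophore-titled cells, against 29.9 in the xanthophore-titled cells, at least 1.75-fold. That bound fell to 1.34-fold with the spike-ins set equal. All 5 probe sets of the topoisomerase top2a, the form of dividing cells, were under both medians (2.5 to 40.0 in the melanophore-titled cells, against 4.1 to 38.7 in the xanthophore-titled cells). The form also kept by resting cells, top2b, reached 137.8 (melanophore-titled) and 112.9 (xanthophore-titled) in 1 of its 5 probe sets. Its other 4 were under both medians, so the forms are set apart by that 1 probe set alone.

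Most mitotic genes were under both medians. Under both medians lay the proliferation antigen mki67 in all 3 probe sets (1.6 to 21.6 in the melanophore-titled cells, against 1.8 to 32.2 in the xanthophore-titled cells), the mitotic polo kinase plk1 (2.9 melanophore-titled and 10.6 xanthophore-titled), the centriole kinase plk4 (30.4 melanophore-titled and 40.6 xanthophore-titled), the checkpoint gene bub1bb (7.6 melanophore-titled and 1.7 xanthophore-titled), and cdc20, which starts the exit from mitosis (23.5 melanophore-titled and 30.6 xanthophore-titled). The spindle kinase aurka was above both, at 138.2 in the melanophore-titled cells, against 219.2 in the xanthophore-titled cells, 1.59-fold higher on the xanthophore-titled array and 2.07-fold with the spike-ins set equal. The checkpoint gene bub3 stood at 135.7 (melanophore-titled) and 81.8 (xanthophore-titled) in its brighter probe set and at 6.1 (melanophore-titled) and 37.7 (xanthophore-titled) in the other, and bub1ba at 67.0 (melanophore-titled) and 38.8 (xanthophore-titled).

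The polo kinases best known outside mitosis were above both medians. Plk2 and Plk3 are known in mammals as early response genes of growth factor and stress signalling. Their zebrafish genes stood at 1166.4 (melanophore-titled) and 761.2 (xanthophore-titled) (plk2b) and at 6848.0 (melanophore-titled) and 3064.9 (xanthophore-titled) (plk3). The plk3 ratio was 2.23-fold, 1.71-fold with the spike-ins set equal, and its signals stood at the 99.5th and 98th percentiles.

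Of the 43 measured members, 5 were 2-fold or more higher on the melanophore-titled array (11.6%, where 15.0% of all measured probe sets were). These were cdk5rap3, pole3, 1 probe set of cdkn1bb, cdk2 and plk3. On the xanthophore-titled array 0 were 2-fold or more higher (4.13% of all were). Both shares lie near the background, and which of the 2 was higher depended on the scaling. The median log2 ratio of the measured members was 0.30, against 0.34 over all, with 19 members above the median of all and 24 below it. The 24 include the 3 members that gave no fold. They also include 4 lower bounds, whose ratios could lie above that median. With the spike-ins set equal 2 members, cdk5rap3 and pole3, were 2-fold higher on the melanophore-titled array (6.41% of all were) and 3, mcm4, mcm2 and aurka, on the xanthophore-titled array (8.27% of all). As deposited, the connective tissue and erythrocyte sums given above, and dct, were higher on the same array as mcm4, mcm2 and aurka. The endothelial, xanthophore, keratinocyte, leukocyte, Schwann cell and neuron, and muscle sums were higher on the same array as cdk5rap3 and pole3. Whether cell types bear on these ratios was not tested.

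**Figure D3:**
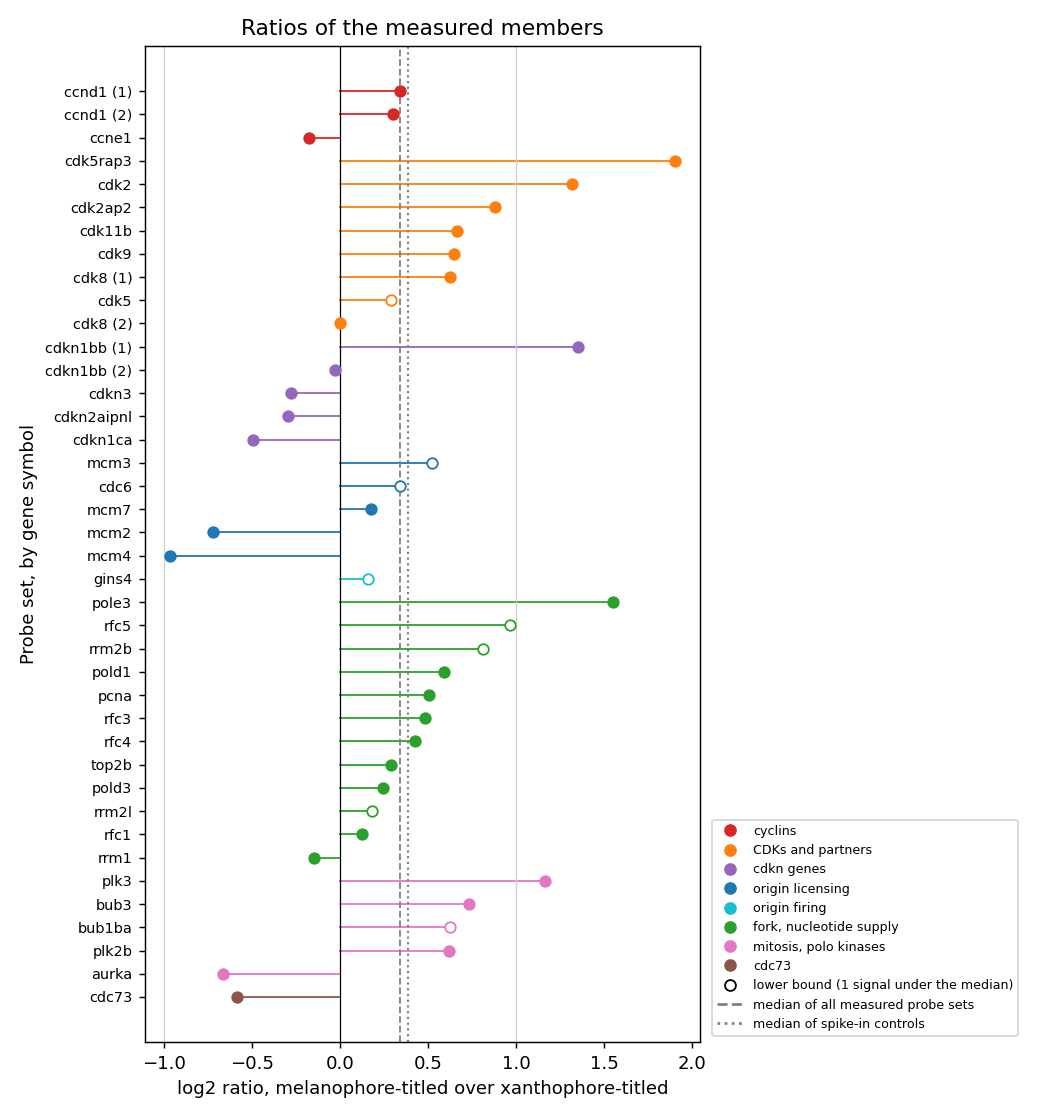
Log2 ratio, melanophore-titled over xanthophore-titled, of each measured member with a fold, grouped by role. Open circles are lower bounds, the dashed line is the median of all measured probe sets (0.34), the dotted line that of the spike-ins (0.38), and the outer grey lines mark 2-fold. The ratios run from -0.97 for mcm4 to 1.90 for cdk5rap3, and the 2 probe sets of cdkn1bb lie far apart.

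Other genes of the cycle were taken from 7 lists of 193 genes outside the name pattern, 1 value a gene from its brightest probe set. Of these, 136 had a probe set, and in 78 it was measured. Among the 78, 8 genes were 2-fold or more higher on the melanophore-titled array (10.3%, with 15.5% of all measured genes) and 1 on the xanthophore-titled array (1.28%, with 4.09% of all). Their median log2 ratio was 0.36, equal to that of all genes at 2 decimals. Under both medians lay 57 of the 136 (41.9%), with 37.4% of all genes, so the lists as a whole lay near the background.

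The single lists lay on either side of that 37.4%. Of 25 kinetochore and spindle genes with a probe set 19 (76%) lay under both medians, among them ndc80 (3.8 melanophore-titled and 3.5 xanthophore-titled), kif11 (17.9 melanophore-titled and 4.8 xanthophore-titled) and ttk (43.3 melanophore-titled and 43.2 xanthophore-titled). The 6 measured genes were anln, birc5a, nuf2, zw10 and 2 kinesins, with kif20a, a motor of cell cleavage, at 2474.6 in the melanophore-titled cells, against 4292.6 in the xanthophore-titled cells, and kif2c, which shortens spindle microtubules, at 156.8 (melanophore-titled) and 291.6 (xanthophore-titled). Their log2 ratios were -0.79 and -0.90. The survivin gene birc5a stood at 91.2 (melanophore-titled) and 51.6 (xanthophore-titled). Of 15 condensin and S-phase chromatin genes 9 (60%) lay under both medians, while hmgb2a stood at 203.3 (melanophore-titled) and 116.9 (xanthophore-titled) and the maintenance methylase dnmt1 at 81.5 (melanophore-titled) and 78.5 (xanthophore-titled). The relative hmgb2b stood at 169.4 (melanophore-titled) and 129.0 (xanthophore-titled), and the condensin gene smc4 at 47.7 (melanophore-titled) and 61.1 (xanthophore-titled). Of 21 further replication genes 11 (52.4%) lay under both medians, among them the ligase lig1 (29.8 melanophore-titled and 14.4 xanthophore-titled), the thymidylate synthase tyms (18.8 melanophore-titled and 6.7 xanthophore-titled) and geminin, gmnn (16.2 melanophore-titled and 33.3 xanthophore-titled). The single-strand binding protein gene rpa2 stood at 82.6 (melanophore-titled) and 17.9 (xanthophore-titled), at least 1.90-fold, or 1.46-fold with the spike-ins set equal. The helicase gene ruvbl2 stood at 95.1 (melanophore-titled) and 49.1 (xanthophore-titled). The topoisomerase top1a, used in transcription as well, stood at 1495.2 (melanophore-titled) and 907.3 (xanthophore-titled).

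Of 22 E2F, Rb and Myb genes 6 (27.3%) lay under both medians and 59.1% reached both, near the 54.1% of all genes that did. Among the 6 was foxm1, a driver of mitotic genes, at 1.1 (melanophore-titled) and 6.7 (xanthophore-titled). The activator e2f3 stood at 277.9 in the melanophore-titled cells, against 101.6 in the xanthophore-titled cells (2.74-fold), the repressor-type e2f4 at 600.8 (melanophore-titled) and 257.1 (xanthophore-titled) (2.34-fold) and rb1 at 218.1 (melanophore-titled) and 101.1 (xanthophore-titled) (2.16-fold). With the spike-ins set equal these were 2.1-fold, 1.79-fold and 1.66-fold. Also 2-fold higher as deposited was lin54, of the complex that represses cycle genes in resting cells (2.52-fold, or 1.93-fold with the spike-ins set equal). Among the 10 measured kinase control genes, cdc34b, a ubiquitin enzyme whose human form serves the degradation of p27, had the largest ratio, at 3338.4 (melanophore-titled) and 975.6 (xanthophore-titled), 3.42-fold and 2.63-fold with the spike-ins set equal. Its paralog cdc34a stood at 271.1 (melanophore-titled) and 114.4 (xanthophore-titled), and the phosphatase cdc25b, which frees the kinases, at 306.5 (melanophore-titled) and 153.0 (xanthophore-titled). Of 13 kinase control genes 61.5% reached both medians, also near the share of all genes. Of 22 genes of the anaphase-promoting complex and cohesin 7 (31.8%) lay under both medians, with the cohesin gene stag2b at 2619.3 (melanophore-titled) and 1462.1 (xanthophore-titled) and pds5b at 556.8 (melanophore-titled) and 255.1 (xanthophore-titled) (2.18-fold). The pds5b ratio fell to 1.68-fold with the spike-ins set equal. The gene fzr1a, which turns on the anaphase-promoting complex in late mitosis and G1, stood at 363.8 (melanophore-titled) and 207.6 (xanthophore-titled).

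Of 18 checkpoint and arrest genes with a probe set 2 (11.1%) lay under both medians. The other 16 were measured, with a median log2 ratio of -0.11. The growth arrest gene gadd45bb stood at 1107.5 in the melanophore-titled cells, against 2541.2 in the xanthophore-titled cells, 2.29-fold higher on the xanthophore-titled array, and the antiproliferative gene btg1 at 2972.5 (melanophore-titled) and 5645.4 (xanthophore-titled). Their relatives gadd45ba, gadd45ga and btg2 stood at 5608.6, 2468.7 and 3077.2 in the melanophore-titled cells, against 7194.4, 2991.3 and 3705.2 in the xanthophore-titled cells. The cyclin D-binding gene ccndbp1 stood at 86.8 (melanophore-titled) and 34.2 (xanthophore-titled), a lower bound just under 2-fold, or 1.53-fold with the spike-ins set equal. The checkpoint kinase chek1 was under both medians at 13.6 (melanophore-titled) and 13.2 (xanthophore-titled). With the spike-ins set equal 7 genes of the lists were 2-fold higher on the xanthophore-titled array: gadd45bb, kif2c, btg1, the cyclin ccng2, kif20a, tob1b and mycb. Only e2f3 and cdc34b were so on the melanophore-titled array under that scaling. As deposited 78 genes of the lists were measured. Of all measured probe sets, 8.27% were 2-fold higher on the xanthophore-titled array under that scaling and 6.41% on the melanophore-titled array.

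**Figure D4:**
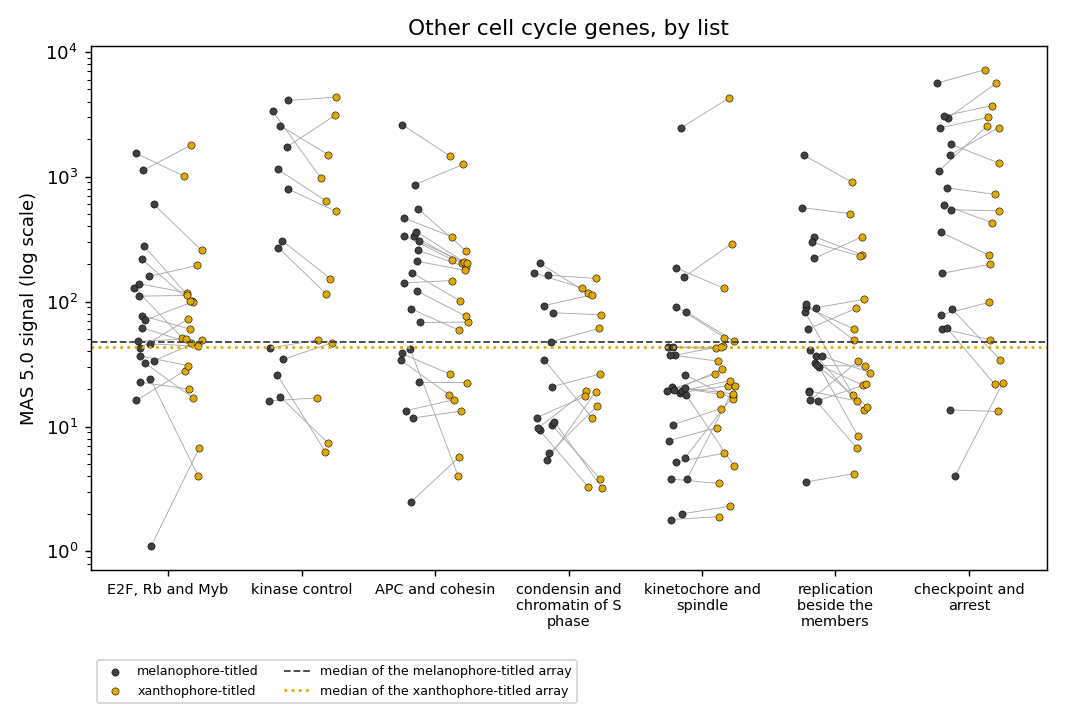
MAS 5.0 signal (log scale) of the genes of 7 further cell cycle lists on the melanophore-titled (dark points) and the xanthophore-titled array (yellow points), with lines joining the same gene. Horizontal lines are the array medians. Of the kinetochore and spindle genes 19 of 25 lie under both medians, and of the checkpoint and arrest genes 2 of 18.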

How the data were processed

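Signal intensity on 2 arrays, for 15617 probe sets, was deposited by the authors; an outside service computed it with MAS 5.0, per the labels' protocols. Its scaling target is not given in the sources used here, nor are detection calls. The 115 Affymetrix controls were kept out of medians and counts. Names come from the platform annotation (1 symbol was updated by gene ID): 10795 have 1 symbol, 135 several and 4572 none here. The number of arrays, 1 per preparation, limits the precision. Ratios were computed in Python 3.11.15 with numpy 2.4.6 and pandas 2.3.3 from the deposited intensities, with the median of each array as floor and 2-fold as threshold. No test was made. A bound that would turn the direction of the raw signals was set to a log2 ratio of 0. The calculation was tested on simulated data. The members and lists were chosen with earlier results of these data known. Named were all measured members 2-fold apart, up to 5 more per role, members with several measured probe sets and up to 3 genes per further list by ratio. Of the melanophore and the xanthophore markers up to 3 measured ones each were named by signal. The other marker lists are given as sums and counts only. All other genes named, including those under both medians, were chosen after their values were seen. No sequences are shown, since no sequence table was used here.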

Additional observations from a re-analysis of the deposited data

How the results depend on the processing

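No paired analysis was possible because each group is 1 array, and no replicate could be left out. The counts of members at or above the medians (40 and 35) and under both (58) could not change under linear scaling, since each median scales with its array. With the line at the 25th percentile they were 79, 77 and 14, and at the 65th percentile 19, 19 and 79. With 1 value a gene from the brightest probe set 37 of 76 genes lay under both. Counts of members 2-fold higher are given of those measured, with the share of all measured probe sets in brackets. On the melanophore-titled array the count was 5 of 43 as deposited (15.0%). It was 2 of 42 with spike-in scaling (6.41%), 4 of 43 with quantile normalization (6.08%) and 17 of 41 with equal ribosomal protein medians (40.8%). It was 1 of 41 with equal bright medians (4.40%), 2 of 42 with equal trimmed means (5.89%) and 3 of 43 with a lowess trend removed (5.87%). With a 25th percentile floor it was 10 of 87 (13.6%), without a floor 8 of 43 (17.4%). With the filter at the 75th percentile it was 3 of 13 (21.1%), at 1.5-fold 15 of 43 (34.6%) and at 4-fold 0 of 43 (2.15%). On the xanthophore-titled array the count was 0 of 43 as deposited (4.13%). It was 3 of 42 with spike-in scaling (8.27%), 3 of 43 with quantile normalization (8.01%) and 5 of 41 with equal bright medians (11.7%). It was 4 of 42 with equal trimmed means (8.86%) and 3 of 43 with a lowess trend removed (8.01%). With a 25th percentile floor it was 3 of 87 (6.54%) and at 1.5-fold 4 of 43 (8.69%). The members' median log2 ratio (0.30) was 0.83 with equal ribosomal protein medians and -0.13 with equal bright medians. The median of all measured probe sets moved with it, to 0.86 and -0.18, and the difference stayed between -0.084 and 0.11 under every alternative run. For the genes of the 7 further lists, alternatives added after seeing the data gave these counts 2-fold higher on the melanophore-titled and then the xanthophore-titled array (8 and 1 as deposited): 2 and 7 with spike-in scaling, 3 and 9 with quantile normalization, 31 and 0 with equal ribosomal protein medians, 1 and 12 with equal bright medians, 2 and 9 with equal trimmed means, 2 and 9 with a lowess trend removed, 16 and 2 with a 25th percentile floor, 27 and 8 at 1.5-fold, and 0 and 0 at 4-fold. Their median log2 ratio (0.36) was 0.89 with equal ribosomal protein medians, -0.19 with equal bright medians and -0.061 with equal trimmed means. The bracketed shares of all measured probe sets, given above, moved under the same settings. Those shares are over probe sets, while the list counts use 1 value a gene, and the number of list genes measured under each setting is not given here. On the xanthophore-titled array the share of all was 2.32% with equal ribosomal protein medians and 1.11% at 4-fold. Of the 34 named member probe sets, cdk5rap3 kept 2-fold in all 13 alternatives that gave it a value and pole3 in 11 of 12, cdk2 in 8 of 12, plk3 in 9 of 13 and the cdkn1bb probe set at 2.55-fold in 7 of 13. The genes mcm2 and aurka were higher on the xanthophore-titled array in all 12 and 13 alternatives, and mcm4 in 11 of 12, with no fold in the other. All these tallies include alternatives that could not alter the value. For cdk5rap3, plk3 and aurka, each with 1 bright probe set, only the scalings could do so. Under them cdk5rap3 ran from 2.54-fold to 5.28-fold, and plk3 kept 2-fold only with quantile normalization and equal ribosomal protein medians. None of the 5 members at 2-fold changed direction. Among the 34, smaller ratios did so under at least 1 scaling or choice of probe set: those of mcm7, ccnd1, the second cdkn1bb probe set, cdk8, cdkn2aipnl, cdkn3, cdkn1ca, ccne1, rfc3 and pcna. Single ratios of the members outside the 34 were not followed through the alternatives. Of these members rfc1, pold3 and top2b changed direction with the spike-ins set equal, to log2 ratios of -0.26, -0.14 and -0.094.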

Other observations

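Among the kinetochore and spindle genes, kif20a was above both medians. It reached 2474.6 in the melanophore-titled cells, against 4292.6 in the xanthophore-titled cells, while the cleavage genes kif23, prc1a, prc1b, ect2 and racgap1, which act with it in dividing cells, lay under both medians and anln, at 82.8 (melanophore-titled) and 48.1 (xanthophore-titled), lay above both. The 5 under both stood at 10.3, 2.0, 1.8, 3.8 and 5.2 in the melanophore-titled cells, against 13.9, 2.3, 1.9, 21.1 and 6.1 in the xanthophore-titled cells. The Myc genes, which drive growth and the cycle, differed in direction. The gene myca stood at 42.4 (melanophore-titled), under that median, and 72.2 (xanthophore-titled), mycb at 1123.0 (melanophore-titled) and 1799.4 (xanthophore-titled) and mycn at 1537.7 (melanophore-titled) and 1009.3 (xanthophore-titled). The log2 ratio was -0.68 for mycb and 0.61 for mycn (-1.06 and 0.23 with the spike-ins set equal).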
